A study of Mus musculus with 278 samples.

Results

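Desmosome components are described here as 10 genes taken by name from a single-cell expression table of cultured mouse keratinocytes: Dsp, Dsg2, Dsg3, Dsc2, Dsc3, Pkp1, Pkp2, Pkp3, Jup and Perp. They are 10 of the 14145 genes in the table. They were listed by name and not by a cut on expression, but earlier results of these data were known when they were chosen. All 10 passed the filter on low values, which kept 12355 genes. The study cultured keratinocytes from adult dorsal skin as a mixture of 9 parts wild type to 1 part K14ΔNβ-cateninER, and asked how activation of β-catenin in a minority of cells changes their neighbours. In the K14ΔNβ-cateninER cells a stabilised β-catenin fused to an oestrogen receptor domain is driven by the keratin 14 promoter and is switched on by 4-hydroxy-tamoxifen (4-OHT). Untreated cultures received DMSO and treated cultures 200 nM 4-OHT, each for 24 h, and both contained the transgenic cells. Single cells were captured on microfluidic chips for medium-sized cells, so larger cells were not sampled, and per the labels doublets and non-viable cells were excluded by imaging. The libraries carry 2 kinds of name, AG and GHA501A, which gives 4 library sets: 66 untreated and 64 treated AG cells, and 71 untreated and 69 treated GHA501A cells. The study recognised transgenic cells by reads from the transgene and dropped them from its own analysis. The labels do not mark these cells, so they could not be set aside here and may be among the cells described. Nothing in the labels says that the sets came from separate animals or cultures, so p-values measure only the spread between these sets.

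Desmosomes are cell-to-cell junctions that anchor keratin filaments at the plasma membrane, and they give the epidermis its resistance to mechanical stress. The adhesive bond is made by 2 families of cadherins, the desmogleins and the desmocollins. Their cytoplasmic tails bind the armadillo proteins plakoglobin and plakophilin, which bind desmoplakin, and desmoplakin holds the keratin filaments. Loss of single components causes skin blistering or heart muscle disease, since heart muscle also depends on desmosomes.

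Positions are those of the GRCm38 build in GENCODE release M21. Dsp is at chr13:38151294-38198577 on the plus strand, and Jup at chr11:100368958-100397763 on the minus strand. Perp is at chr10:18845020-18857073 on the plus strand. The plakophilin genes are at chr1:135871395-135919207 on the minus strand (Pkp1), chr16:16213318-16272712 on the plus strand (Pkp2) and chr7:141078218-141090510 on the plus strand (Pkp3). RefSeq promoter sequences (GRCm38.p6) matched 2 of the members, Dsp and Jup, which encode the plaque proteins found in every desmosome. The 250 bases before each start site are shown 5′ to 3′ on the strand of the gene, at chr13:38151044-38151293 for Dsp and chr11:100397791-100398040 for Jup. Capitals mark the GC box GGGCGG on either strand, so that CCGCCC is the same box read on the other strand.
Dsp: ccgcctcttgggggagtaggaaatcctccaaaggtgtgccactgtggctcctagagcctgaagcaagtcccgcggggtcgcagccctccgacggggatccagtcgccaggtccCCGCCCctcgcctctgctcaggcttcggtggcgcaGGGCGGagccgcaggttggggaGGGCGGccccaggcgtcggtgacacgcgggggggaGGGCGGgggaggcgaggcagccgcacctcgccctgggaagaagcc
Jup: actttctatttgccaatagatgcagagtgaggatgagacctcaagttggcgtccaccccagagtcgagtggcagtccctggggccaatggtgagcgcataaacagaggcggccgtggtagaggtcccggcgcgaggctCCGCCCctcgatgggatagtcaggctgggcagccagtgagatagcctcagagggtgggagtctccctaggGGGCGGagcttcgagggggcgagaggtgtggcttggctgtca
The Dsp stretch held 4 GC boxes and the Jup stretch 2, and 32.7% of the 32851 RefSeq promoter stretches of the same length held at least 1. Both were rich in G and C, at 72.4% for Dsp and 62% for Jup against a median of 52.4% over those promoters. Neither held any of 4 other motifs searched on both strands: the AP-1 site TGANTCA (in 6.75% of promoters), the TCF/LEF core CTTTGA (13.8%), the Grainyhead-like site AACCGGTT (0.116%) and the E-box CACCTG (17.2%). A match or its absence describes these letters only.

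Expression is given as TPM, a unit in which transcript levels are scaled by transcript length and to the same total in every cell. Levels can therefore be compared between genes, but the number of reads behind a value is unknown. The cells had a median of 6288 genes over 1 TPM, ranging from 2538 to 7592. All samples carry the label keratinocytes, and the defining markers bear this out in 1 library series only. Krt14, the basal keratinocyte keratin, averaged 5314 and 6039 TPM in the untreated and treated AG sets, against 226 and 846 TPM in the GHA501A sets. Col1a1, a fibroblast collagen, averaged 14.97 and 15.87 TPM in AG and 1507 and 1936 TPM in GHA501A. Cells were therefore also sorted by a cut of 100 TPM in Krt14 and Col1a1. Krt14-high cells passed the Krt14 cut alone: 64 untreated and 59 treated in AG, and 8 untreated and 10 treated in GHA501A. Col1a1-high cells passed the Col1a1 cut alone and were found in GHA501A only, 60 untreated and 49 treated. Mixed cells passed both cuts, with 2 untreated and 4 treated in AG and 2 untreated and 10 treated in GHA501A. One or both genes lay between 30 and 300 TPM in 14 AG and 30 GHA501A cells, close to the cut. The values of the AG and GHA501A series also differ in genes that every cell uses. Of the genes in the table, 1.36% were over 1 TPM in at least 90% of GHA501A cells but in under 10% of AG cells, among them the ribosomal protein gene Rps24 and the translation factor Eif4a1, and 31 genes showed the opposite. A level near 0 in AG is therefore reported only as the value listed, and differences between the series cannot be told apart from differences in how their libraries were made and quantified.

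The AG cells expressed most of the desmosome components, and these stood at very different levels. A median of 8 of the 10 genes was over 1 TPM per AG cell, with a range from 3 to 10 over 130 cells. The order of mean levels over the untreated and treated AG sets ran from Perp through Dsp, Dsg3, Jup, Pkp1, Dsc3, Dsg2, Dsc2 and Pkp2 down to Pkp3. Neighbours in that order whose set means overlapped were Dsp with Dsg3 and Pkp1 with Dsc3. The overlap of Dsp with Dsg3 rested on 1 untreated cell at 5388 TPM of Dsg3. Without that cell the set means of Dsg3 overlapped those of Jup instead. By medians the order differed, with Jup above Dsg3 and Dsp in the treated AG cells. Those of Dsg2 and Dsc2 overlapped only through 1 treated cell with a very high Dsc2 value, described below.

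**Figure D1:**
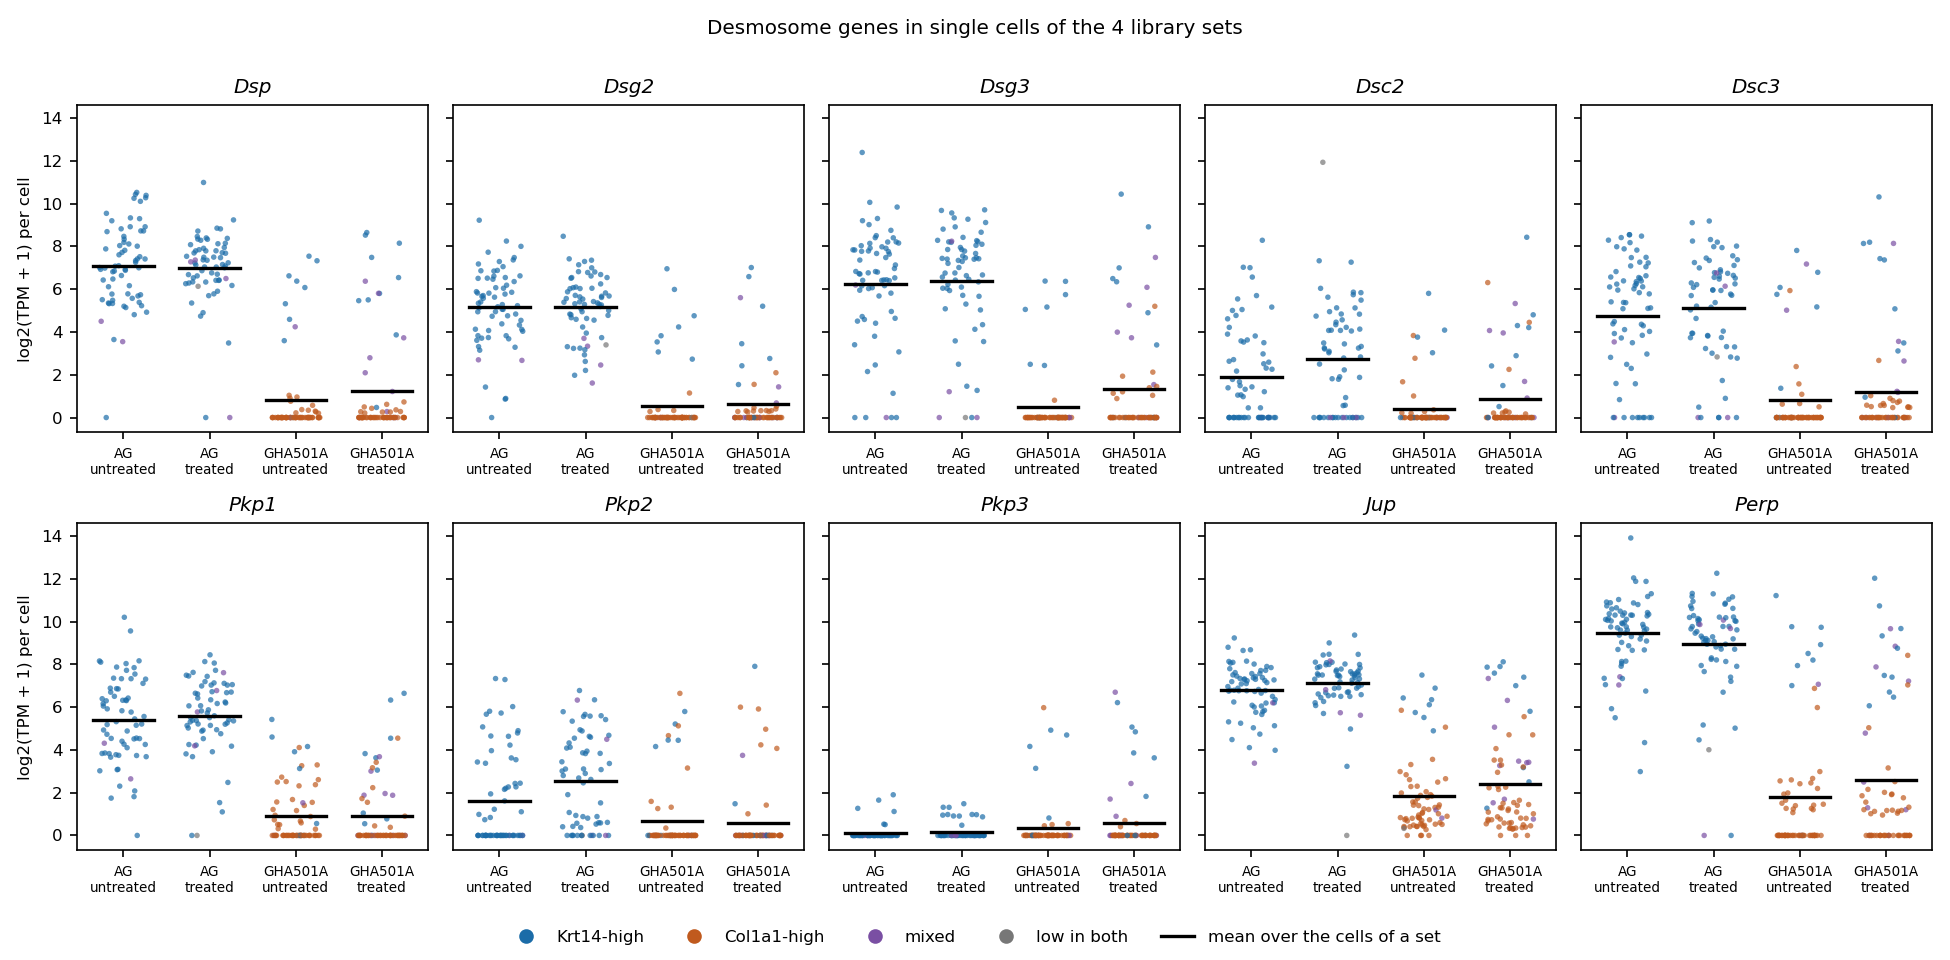
Each point is 1 cell, with log2(TPM + 1) of the gene named above the panel on the vertical axis and the 4 library sets on the horizontal axis, coloured by cell class, and black lines are means over the cells of a set. In AG the points of Dsp, Dsg2, Pkp1, Jup and Perp lie above 1 TPM in 97.7 to 99.2% of 130 cells, in GHA501A most points lie at or near 0, and Pkp3 lies near 0 in AG.

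Desmoplakin, which links the plaque to keratin filaments, was detected over 1 TPM in 97.7% of 130 AG cells (Wilson 95% interval 93.4 to 99.2%). This interval, like those that follow, covers the counting of cells only. Dsp ranged from 0 to 1475 TPM with a median of 131 over the untreated AG cells, and from 0 to 2036 with a median of 149.1 over the treated ones. The set means were 286 and 202 TPM. In GHA501A the median was 0 in both sets, the highest cells had 185.7 and 401.0 TPM, and the means were 9.70 untreated and 23.8 treated. The GHA501A cells thus overlapped the AG range in single cells, with 17.9% of them over 1 TPM.

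The 4 cadherin genes lie together on chromosome 18, and the other members are on 6 different chromosomes. Among the desmogleins, the adhesive cadherins, Dsg3 stood above Dsg2. Dsg3, which is typical of stratified epithelia, had medians of 106.5 and 151.7 TPM in the untreated and treated AG cells, with highest values of 5388 and 838 TPM. The set means were 253 and 196 TPM, and without the single highest untreated cell the untreated mean was 174.3 TPM. Dsg2, the desmoglein of simple epithelia and heart that is also found in basal keratinocytes, was over 1 TPM in 97.7% of AG cells, against 93.1% for Dsg3. Its medians were 38.8 and 40.5 TPM in the AG sets, the highest cells had 598 and 355 TPM, and the means were 67.8 and 55.2 TPM. Dsg2 made up 21.1% and 21.9% of the summed Dsg2 and Dsg3 TPM in the untreated and treated AG sets. In GHA501A the medians of both genes were 0, with means of 4.14 and 37.3 TPM for Dsg3 and 3.78 and 4.92 TPM for Dsg2.

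Among the desmocollins, the partners of the desmogleins, the medians of Dsc3 stood above those of Dsc2 in both AG sets. Dsc3, the desmocollin of basal keratinocytes, had medians of 41.1 and 60.8 TPM in the untreated and treated AG cells, highest values of 374 and 583 TPM, and means of 82.32 and 93.02 TPM. Dsc2, the more widely expressed desmocollin, had medians of 1.20 and 6.65 TPM and was over 1 TPM in 53.03% and 62.50% of the cells. Its means were 15.9 TPM untreated and 78.0 TPM treated, but 1 treated cell at 3916 TPM held 78.4% of the treated sum, and the mean of the other cells was 17.1 TPM. That cell had 63.7 TPM of Krt14, no Col1a1, and 2538 detected genes, the fewest of any cell. Within Krt14-high cells, which do not include it, Dsc2 made up 16.2% and 15.7% of the summed Dsc2 and Dsc3 TPM in the AG sets and 15.6% and 15.8% in the GHA501A sets. These shares rest on single cells. Without the cell highest in Dsc2 they were 11.99% and 13.73% in AG and 7.78% and 3.75% in GHA501A. Averaging the share of each cell instead gave 19.1% to 27.9%.

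Of the plakophilins, armadillo proteins that cluster the plaque, Pkp1 was listed highest in AG. Pkp1, the plakophilin of stratified epithelia, had medians of 40.8 and 52.9 TPM in the untreated and treated AG cells, highest values of 1177 and 348 TPM, and means of 100.6 and 79.77 TPM. Pkp2, the plakophilin of heart and simple epithelia, was over 1 TPM in 40.9% of untreated and 59.4% of treated AG cells, with means of 11.82 and 15.04 TPM and highest values of 160.7 and 108.6 TPM. Pkp3, which is widespread in epithelia, was listed over 1 TPM in 4 of 66 untreated and 3 of 64 treated AG cells, with highest values of 2.74 and 1.80 TPM. Pkp1 made up 89.49% and 84.14% of the summed Pkp1 and Pkp2 TPM in the AG sets, a share that leaves out Pkp3, since genes that every cell uses are also listed near 0 in AG. In Krt14-high cells of GHA501A, Pkp1, Pkp2 and Pkp3 made up 31.3%, 44.8% and 23.9% of their sum in the untreated set and 36.9%, 37.8% and 25.3% in the treated set. Of the treated Pkp2 sum there, 99.3% came from 1 cell, and without it the Pkp2 share was 0.568%. Without the cell highest in Pkp3 the treated Pkp3 share was 15.6%.

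Plakoglobin and Perp were the members most often detected in AG, at 99.2% and 98.5% of cells. Jup, which encodes plakoglobin, a plaque protein shared by desmosomes and adherens junctions, ranged from 9.41 to 602 TPM with a median of 129.1 in untreated AG cells, and from 0 to 660 with a median of 168.5 in treated ones. Its standard deviation over cells was 0.745 and 0.631 times its mean in the AG sets, against 1.28 and 1.30 for Dsp and 2.66 and 1.05 for Dsg3. Jup was also the member most often detected in GHA501A, over 1 TPM in 59.3% of the cells, at medians of 1.28 and 1.72 TPM. Perp, a tetraspan membrane protein and p63 target needed for desmosome assembly, was the most abundant member, with medians of 898 and 721 TPM and means of 1262 and 909 TPM in the AG sets. A single untreated cell at 15388 TPM held 18.5% of the untreated Perp sum. In GHA501A Perp averaged 84.14 and 153.7 TPM, and 49.3% of cells were over 1 TPM.

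The low GHA501A averages were made of cells with nearly the whole set of components and cells with almost none. The 18 Krt14-high GHA501A cells had a median of 8 of the 10 genes over 1 TPM (range 3 to 10), as many as the AG cells. Pkp3, listed over 1 TPM in 5.38% of AG cells, added little to the AG count, so these medians do not count quite the same genes. The Col1a1-high cells had a median of 1 (range 0 to 6), and 27 of them had none. The 12 mixed cells lay between these classes, with a median of 4 (range 1 to 9). Fewer RNA molecules of the members per cell and a different make-up of the rest of the RNA cannot be told apart on the TPM scale.

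**Figure D2:**
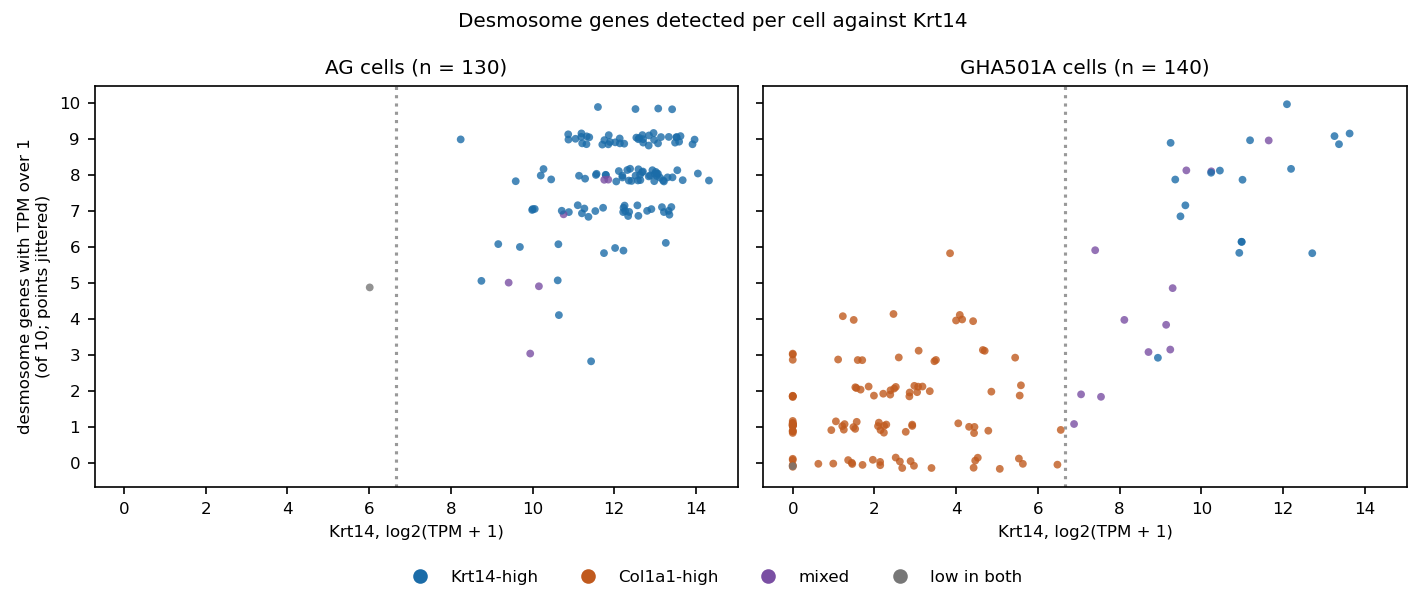
Each point is 1 cell, with Krt14 as log2(TPM + 1) on the horizontal axis and the number of desmosome genes over 1 TPM, out of 10, on the vertical axis, coloured by cell class, and the dotted line marks the Krt14 cut of 100 TPM. Cells to the left of the line in GHA501A have 0 to 6 of the genes, with a median of 1 in the Col1a1-high class, and Krt14-high cells of both series have a median of 8.

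Whether the components went with the keratinocyte class was asked within the GHA501A series, in Krt14-high against Col1a1-high cells of the same 2 library sets. The classes were cut on Krt14 and Col1a1, not on the members. Dsp averaged 83.18 TPM in untreated and 148.05 TPM in treated Krt14-high cells, against 0.0894 and 0.0655 TPM in Col1a1-high cells. Only 1 Col1a1-high cell, of 60 untreated and 49 treated, had Dsp over 1 TPM, at 1.06 TPM, and 17 of 18 Krt14-high cells did. Perp averaged 701 and 837 TPM in Krt14-high cells and 3.91 and 11.2 TPM in Col1a1-high cells, and was over 1 TPM in 18 of 18 Krt14-high and 38.5% of Col1a1-high cells. Jup averaged 82.2 and 130 TPM against 3.26 and 4.07 TPM, and 50.5% of Col1a1-high cells were still over 1 TPM. The classes overlapped in single cells for all 3 of these genes. The highest Col1a1-high cells had 56.8 TPM of Jup and 342 TPM of Perp, and the lowest Krt14-high cell had 0.386 TPM of Dsp.

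The differences below are between log2(mean TPM + 1) of the sets, a scale that understates the change of low genes. By these means all 10 members were higher in Krt14-high cells in both sets, a pattern shown by 20.9% of all genes. For Pkp2 the treated difference rests on 1 Krt14-high cell at 239 TPM. Every other treated Krt14-high cell had 1.79 TPM or less of Pkp2, under the treated Col1a1-high mean of 3.85 TPM. Its standard error below does not cover this. The largest differences were those of Dsp (6.70 ± 0.38, log2 ± SE), Perp (6.63 ± 0.43), Dsc3 (6.16 ± 0.93) and Dsg3 (6.0 ± 0.59). Next came Dsg2 (4.85 ± 0.28), Jup (4.49 ± 0.28), Dsc2 (3.47 ± 0.32) and Pkp3 (3.24 ± 0.61), and Pkp1 (3.11 ± 0.42) and Pkp2 (2.36 ± 0.24) were the smallest. The median over the members was 4.67, against -0.17 over all 12355 genes. None of them passed the test across all genes (limma, Benjamini-Hochberg adjusted p from 0.323 to 0.343), nor did any other gene (0.0% called, meaning an adjusted p under 0.05 and a log2 difference over 0.5). The unadjusted p was under 0.05 for 10 of 10 members and for 1676 genes (13.6%), and with 2 classes in 2 sets the fit has 1 residual degree of freedom. The fit without the set term also called no gene. The summed mean of 8 keratinocyte markers was 5734 TPM in Krt14-high and 24.2 TPM in Col1a1-high cells, and that of 5 fibroblast markers 113.9 and 3527 TPM. These sums include Krt14 and Col1a1, on which the classes were cut. Without them the 7 other keratinocyte markers summed to 2117 and 14.95 TPM, and the 4 other fibroblast markers to 90.1 and 1579 TPM.

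**Figure D3:**
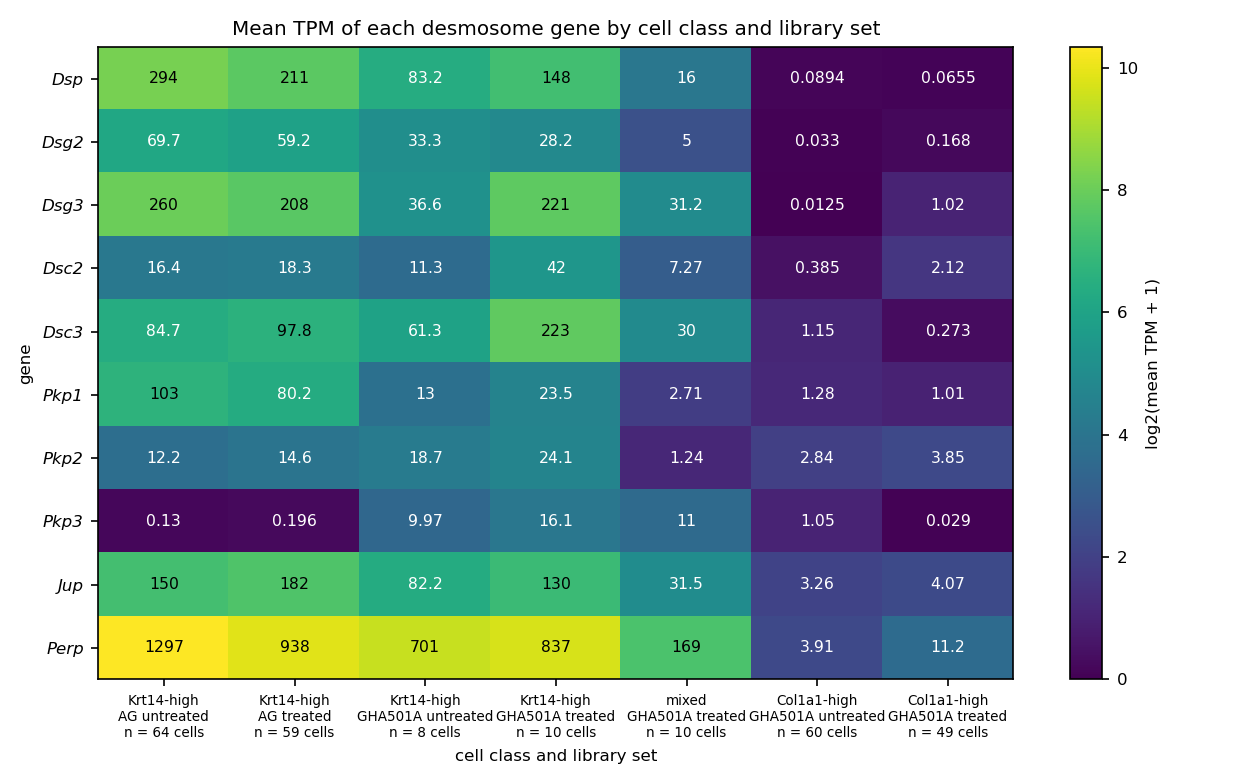
The heat map gives the mean TPM of each desmosome gene (rows) in each cell class and library set (columns, with the number of cells), with colour as log2(mean TPM + 1). Krt14-high columns are at 11.3 TPM or more except for Pkp3 (0.130 and 0.196 TPM in AG and 9.97 TPM in untreated GHA501A), the mixed cells of treated GHA501A lie between the Krt14-high and Col1a1-high cells of their set for all genes except Pkp2 (1.24 TPM), and the Col1a1-high columns are at most 4.07 TPM for all genes except Perp in the treated set (11.2 TPM).

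Between the library series, over all cells, most desmosome genes were higher in AG. Of the 10 members, 8 were called higher and 1 lower, against 10.8% of all genes called higher and 18.2% called lower (limma, Benjamini-Hochberg adjustment, with treatment as a block). The largest difference was that of Pkp1 (4.35 ± 0.40, adjusted p = 0.00299), followed by Dsg3 (4.00 ± 0.83, adjusted p = 0.0281) and Dsp (3.89 ± 0.52, adjusted p = 0.00778). Dsg2 (3.55 ± 0.35), Perp (3.22 ± 0.45), Jup (3.10 ± 0.38), Dsc2 (2.87 ± 0.33) and Dsc3 (2.09 ± 0.49) were called as well, with adjusted p from 0.00365 to 0.0384. Pkp2 was 1.17 ± 0.33 higher and did not pass (adjusted p = 0.0603). Pkp3 was listed lower in AG by -1.74 ± 0.36 (adjusted p = 0.0270), and it is one of the genes listed near 0 there. The number of members called fell to 0 without the untreated AG set and to 1 without the treated AG set, in fits that have to omit the block, and was 7 without either GHA501A set.

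The summed markers of keratinocytes and fibroblasts moved with this difference. The keratinocyte markers summed to 7759 and 8655 TPM in the AG sets and to 377 and 1363 TPM in the GHA501A sets. Krt14 alone held 5314 and 6039 TPM of the AG sums. Of the 8 keratinocyte markers, 7 had positive differences and 4 were called higher in AG, against 10.8% of all genes. Itgb4 went the other way (-1.75 ± 0.52, adjusted p = 0.0708 by limma), listed at 0 TPM in AG and at 0.843 and 5.18 TPM in GHA501A. Fibroblast markers summed to 194 and 218 TPM in AG and to 2862 and 3313 TPM in GHA501A. Lyz2, the immune marker found in the table, had 147 and 98.3 TPM in AG and 388 and 1079 TPM in GHA501A, and the endothelial markers stayed under 1 TPM in all sets. Suprabasal keratinocyte markers summed to between 45.4 and 141.5 TPM in the 4 sets, melanocyte markers to between 16.99 and 76.3 TPM and Merkel cell markers to between 3.64 and 22.4 TPM. The part of these cell types in the difference over all cells was not tested in that fit, and the comparison of Krt14-high cells alone is given next.

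Among Krt14-high cells, 0 of 10 members were called higher in AG and 1 lower, against 3.21% of all genes called higher and 7.03% called lower. The 1 member was Pkp3, at 0.130 and 0.196 TPM in the AG sets and 9.97 and 16.1 TPM in the GHA501A sets (-3.56 ± 0.51, adjusted p = 0.0344 by limma). It was listed over 1 TPM in 4 of 64 untreated and 3 of 59 treated AG cells, and in 10 of 18 GHA501A cells. Its adjusted p was 0.0677 with the gate at 30 TPM and 0.0577 with means of log2 values, and it did not pass without the untreated AG set (0.194) or without the treated one (0.174). Since genes that every cell uses are also listed near 0 in AG, no fold is read from it. Pkp1 had 103.4 and 80.19 TPM in AG against 13.05 and 23.51 TPM in GHA501A, higher by 2.31 ± 0.57 but short of the threshold (adjusted p = 0.0912). Dsg3 (1.35 ± 0.87), Dsp (1.16 ± 0.59), Dsg2 (1.05 ± 0.49), Jup (0.67 ± 0.50) and Perp (0.53 ± 0.52) had positive differences with adjusted p from 0.268 to 0.573. Dsc2 (-0.33 ± 0.64), Dsc3 (-0.36 ± 0.64) and Pkp2 (-0.63 ± 0.49) had negative ones, and each of these 3 turned positive when the highest cell of each set was left out (0.94, 0.40 and 1.56). The median over the members was 0.60, against 0.24 over all genes. The GHA501A side of this comparison rests on 8 and 10 cells, and a p above the threshold does not show that the levels were alike.

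**Figure D4:**
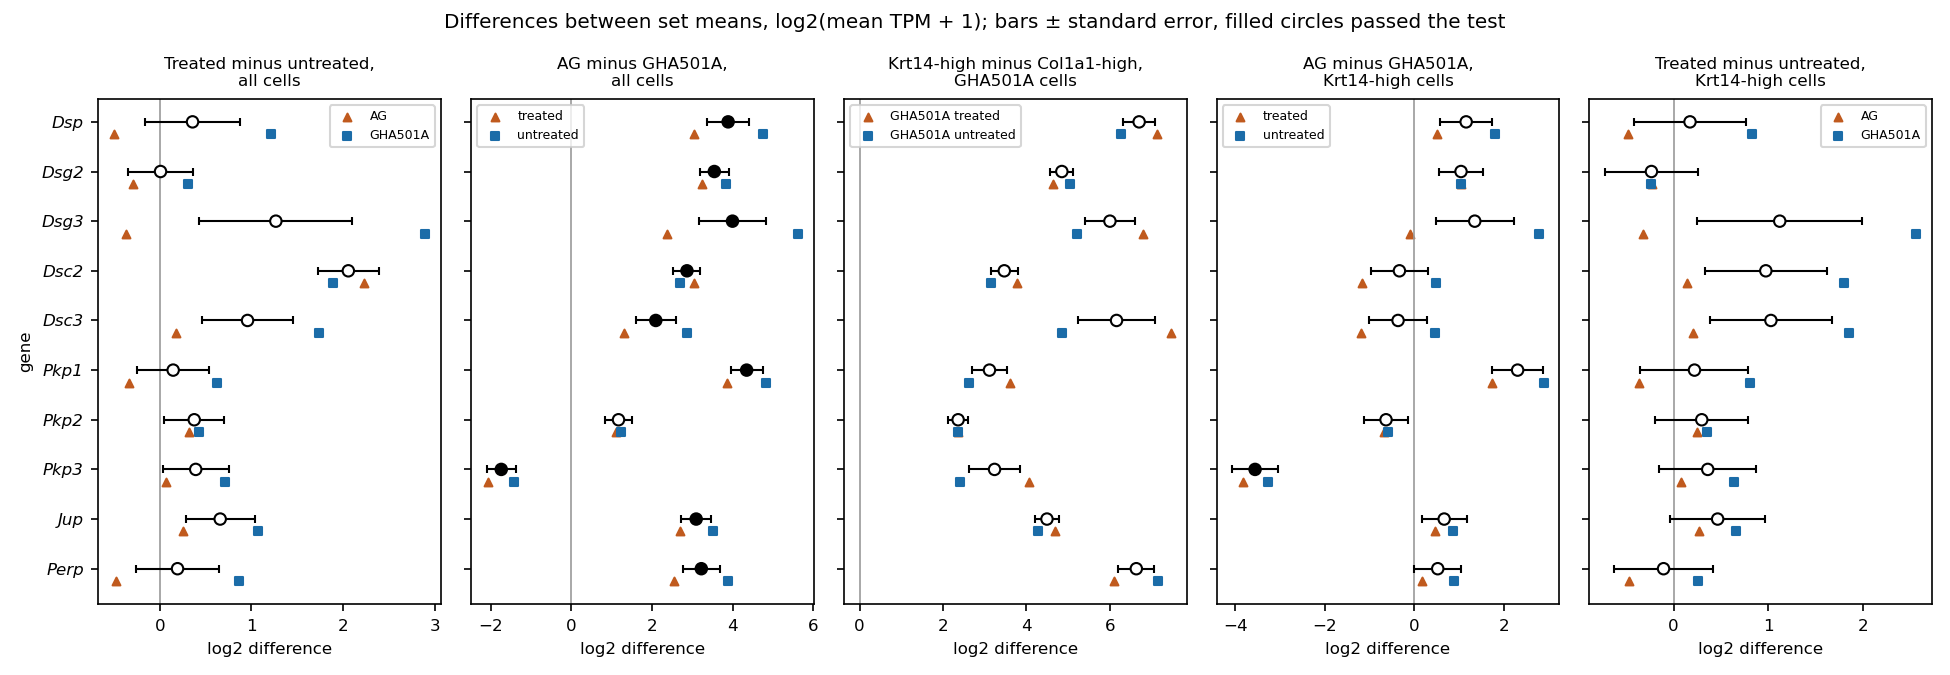
Each panel gives 1 comparison, with the difference of log2(mean TPM + 1) on the horizontal axis and the 10 genes on the vertical axis, where circles are estimates with standard errors (filled where called) and small triangles and squares are the differences within each pair of sets. Filled circles appear for 9 genes between the series over all cells and for Pkp3 between the series in Krt14-high cells, and in no panel of treated against untreated.

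The treatment comparison asked whether neighbours of β-catenin-activated cells changed their desmosome genes. Over all cells, 0 of 10 members were called, nor was any other gene (0.0% of 12355; limma with the series as a block), and the unadjusted p was under 0.05 for 459 genes (3.72%). Fitted with no block, the data also gave 0 calls. All 10 estimates were above 0, as were those of 49.9% of all genes, with a median of 0.38 against 0.00 over all genes, but only 5 members were higher in both series, which 23.5% of all genes were. Those 5 were Dsc2, Dsc3, Pkp2, Pkp3 and Jup. In AG the treated minus untreated difference was -0.50 for Dsp, -0.47 for Perp, -0.37 for Dsg3, -0.33 for Pkp1 and -0.29 for Dsg2. In GHA501A every member was higher in the treated set, from 0.31 for Dsg2 to 2.90 for Dsg3. The GHA501A treated set also held more Krt14-high (10 against 8) and mixed cells (10 against 2), and its Krt14 mean was 846 against 226 TPM. The part of this in the GHA501A differences was not tested over all cells.

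Dsc2 had the largest treatment estimate (2.06 ± 0.33, adjusted p = 0.998) and was the 1 member with an unadjusted p under 0.05 (0.00237, both by limma). In AG the difference of 2.22 rested on the single cell at 3916 TPM, and with the highest cell of each set left out the estimate was 0.95 ± 0.32. Leaving out cells with fewer than 5000 genes gave 1.27 ± 0.42, and means of log2 values gave 0.66 ± 0.21. Without the block the unadjusted p of Dsc2 by limma was 0.254. In such fits the estimate was 0.54 without the treated AG set, 0.71 without the untreated GHA501A set, 3.41 without the untreated AG set and 3.57 without the treated GHA501A set. More treated than untreated cells had Dsc2 over 1 TPM in both series, 62.50% against 53.03% in AG and 20.3% against 11.3% in GHA501A. The Wilson intervals were 50.3 to 73.3% against 41.2 to 64.6%, and 12.5 to 31.2% against 5.82 to 20.7%. They cover the counting of cells only and do not compare the treatments, since cells of a set are not replicates. In GHA501A the treated set also held more Krt14-high (10 against 8) and mixed cells (10 against 2), and the part of this in the Dsc2 share was not tested.

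Within Krt14-high cells no difference between treated and untreated sets passed the test. No member was called and no other gene (0.0%), the unadjusted p was under 0.05 for 0 of 10 members and for 247 genes (2.0%), and the fit without the block called none. The estimates were above 0 for 8 members, as for 49.6% of all genes, and in both series for 5, as for 19.9%. The largest were Dsg3 (1.12 ± 0.87), Dsc3 (1.03 ± 0.64) and Dsc2 (0.97 ± 0.64), and Dsg2 (-0.23 ± 0.49) and Perp (-0.11 ± 0.52) were below 0. In AG, which holds most of these cells, the differences ran from -0.48 for Dsp to 0.27 for Jup. In GHA501A the Dsg3 difference of 2.56 came with 63.1% of the treated sum in 1 of the 10 cells, which was also the highest in Dsp, Dsc2 and Perp. Dsg3 averaged 90.8 TPM in the other treated cells and 36.6 TPM in the untreated ones. The differences of Dsc3 and Dsc2 were 0.20 and 0.15 in AG and 1.85 and 1.80 in GHA501A. Single treated GHA501A cells weighed on these too. The highest had 1274 TPM of Dsc3 and 344 TPM of Dsc2, against 293 and 26.9 TPM in the next cells.

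Across single cells most pairs of members had positive correlations. The values are correlations of log2(TPM + 1) over cells that share their library set and have unknown depths, and they are given as descriptions. Over 130 AG cells, the 45 pairs of members had a median Pearson r of 0.22, from -0.07 to 0.46. The strongest AG pairs were the 2 cadherins Dsg3 and Dsc3 (0.46) and Dsp with Dsg2 (0.44), and the weakest involved Dsc2 and Pkp3, which are at or near 0 in many AG cells. Over 140 GHA501A cells the median was 0.55 and the highest 0.83, for Dsp with Dsg3, in a series that holds both Krt14-high and Col1a1-high cells. Within Krt14-high cells the median was 0.18 over 123 AG cells (from -0.05 to 0.42, 43 of 45 pairs above 0) and 0.26 over 18 GHA501A cells (from -0.30 to 0.76, 34 of 45 pairs above 0). Dsg3 with Dsc3 again had the highest value in those GHA501A cells. With Krt14 itself, the correlation over AG cells was highest for Jup (0.56), Pkp1 (0.47) and Dsp (0.46), and -0.15 for Dsc2. The number of genes detected per cell correlated with Jup (0.39) and Perp (0.39) and little with Dsp (-0.09).

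**Figure D5:**
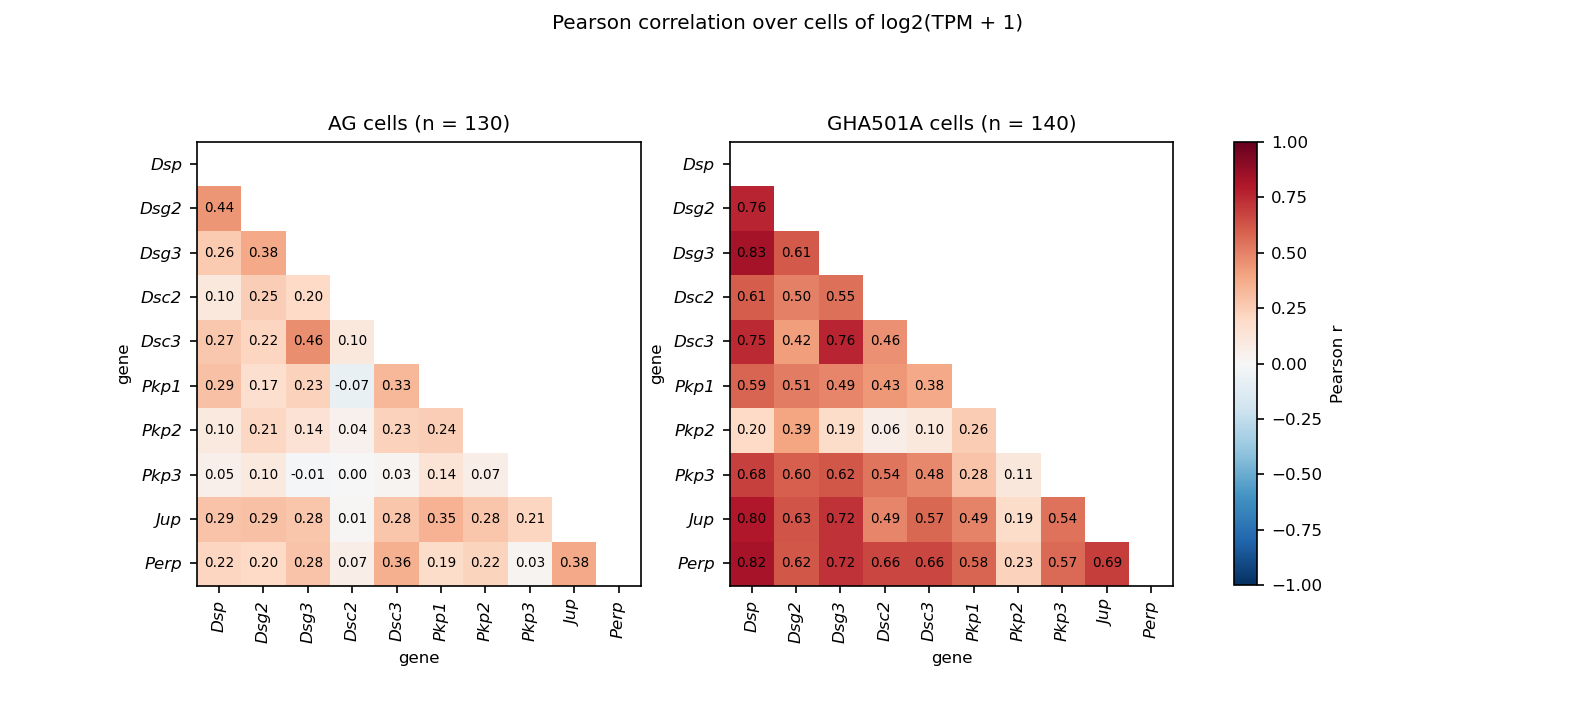
Each square is the Pearson correlation over cells of log2(TPM + 1) between 2 desmosome genes, in 130 AG cells on the left and 140 GHA501A cells on the right, with colour running from -1 (blue) to 1 (red). AG values run from -0.07 to 0.46 and GHA501A values from 0.06 to 0.83, with Pkp2 the palest row in GHA501A.

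The genes most like the desmosome components were taken as those with the highest correlation to the mean z-score of the 10 members. In both series the first was Cdh1, the E-cadherin of adherens junctions, at 0.62 over AG cells and 0.92 over GHA501A cells. In AG it was followed by Ctsh (0.60), the basal keratins Krt5 (0.60) and Krt14 (0.57), Serpinb5 (0.56), the adherens junction protein α-catenin Ctnna1 (0.56), Cast (0.54), the stress keratin Krt6a (0.54), Fxyd3 (0.54) and the epithelial adhesion molecule Epcam (0.53). In GHA501A high values were also found for the hemidesmosome collagen Col17a1 (0.89), the tight junction claudin Cldn4 (0.88) and Lypd3 (0.88). The median over all genes was 0.04 in AG and 0.01 in GHA501A.

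Of the other desmosome genes, Ppl, Evpl and Pkp4 averaged over 10 TPM in at least 1 set. Of 11 (Dsg1a, Dsg1b, Dsg1c, Dsg4, Dsc1, Pkp4, Cdsn, Ppl, Evpl, Kazn and Prkca), 7 passed the filter, and the differentiation-associated Dsg1 and Dsc1 genes averaged at most 0.51 TPM in any set. The Dsg1 genes are near-identical copies and reads that mapped to several places were discarded, so their values are uncertain. Between the series over all cells, 0 of the 7 were called higher and 2 lower: Pkp4, an armadillo protein related to the plakophilins (-3.18 ± 0.34, adjusted p = 0.00421), and corneodesmosin Cdsn (-2.40 ± 0.44, adjusted p = 0.0200). Both are listed near 0 in AG, Pkp4 at 0.117 and 0.122 TPM and Cdsn at 0.0926 and 0.214 TPM, so no decrease is read from them. The median over the 7 was 0.03, against 3.16 for the members. Of all genes, 10.8% were called higher in that fit and 18.2% lower. The plakins of the cornified envelope were detected in AG, with Ppl at 121.7 and 29.95 TPM and Evpl at 99.8 and 7.31 TPM in the untreated and treated sets. The shares of those cells over 1 TPM were 63.6% and 64.1% for Ppl and 51.5% and 51.6% for Evpl. Treated minus untreated, Ppl was -1.99 in AG and -0.34 in GHA501A, and Evpl -3.60 and 0.59. Neither was called (adjusted p = 0.998 by limma), so no fall with treatment is read from these means. In GHA501A Ppl had 39.2 and 30.8 TPM and Evpl 0.582 and 1.38 TPM. Evpl was 3.90 ± 1.04 higher in AG on the log2 scale, short of the threshold (adjusted p = 0.0536). Within GHA501A, Ppl averaged 32.2 TPM in Krt14-high and 35.2 TPM in Col1a1-high cells, a log2 difference of -0.08 ± 0.25.

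Genes of the other epithelial junctions and keratins were counted in the same fits. For reference, 10.8% of all genes were called higher in AG and 18.2% lower between the series over all cells. Between the series over all cells, 2 of 9 adherens junction genes were called higher in AG and 1 lower, with a median of 0.76, led by Cdh1 (3.81 ± 0.49, adjusted p = 0.00715). For tight junctions, 4 of 8 were called higher and 2 lower (median 1.16), led by Cldn4 (3.17 ± 0.33, adjusted p = 0.00390). For hemidesmosomes, which anchor basal cells to the basement membrane, 1 of 9 was called higher and 3 lower (median 1.08), and Lama3 was the one called higher (2.99 ± 0.59, adjusted p = 0.0238). Of 8 epidermal keratins tested, 6 were called higher and 0 lower (median 3.10). Several of the genes called lower, Ctnnb1, Tjp1, Plec, Dst and Cd151, are listed near 0 in AG, as Pkp3 is. In Krt14-high against Col1a1-high cells of GHA501A, 8 of 9 adherens junction, 8 of 8 tight junction, 8 of 9 hemidesmosome and 7 of 8 keratin genes had positive differences, as had 4804 of all 12355 genes. The medians of the lists were 1.40, 3.93, 3.84 and 8.13 beside 4.67 for the members, and no gene was called. The keratins include Krt14, on which the classes were cut, and without it 6 of 7 were positive with a median of 8.04.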

How the data were processed

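Single-cell RNA-seq libraries were prepared by the authors with SMART-Seq v4 chemistry on C1 chips and Nextera XT, and sequenced as paired-end reads. Per the labels and methods, reads were checked with FastQC, trimmed with cutadapt and aligned with TopHat to GRCm38, multiply mapped reads were discarded, genes were counted with featureCounts, and the deposited values are TPM, summing to 1000000 per cell. Tool versions are not given in the sources used here. Depth per cell is unknown, so no interval of a TPM value is given, and Wilson intervals cover counting of cells only.

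Of 294 cells in the table, 16 matched no label and were not used, and 8 with conflicting labels (5 labelled treated, 3 untreated) entered alternatives only, which left 270. A gene was tested where more than 5 cells had it above 1 TPM. Cells are not replicates, so log2(mean TPM + 1) of each library set, with a pseudocount of 1, was compared over all genes with limma 3.58.1 in R 4.3.3 (moderated test, two-sided, Benjamini-Hochberg adjustment), with the other factor (series, treatment or set) as a block. Classes needed at least 5 cells in a set. The block leaves 1 residual degree of freedom, and an exact permutation test of 2 sets against 2 cannot go below p = 0.333. The labels do not say what sets of a series share. On simulated data with planted changes of a single size, the fits recovered them where the spread between sets was small. They recovered none at the residual spread of each gene in these sets. The real sets did give calls between the series (3580 genes over all cells), so the simulation does not stand for every comparison or size of change. A lack of calls does not show a lack of difference. Tables and plots were made with pandas 2.3.3, numpy 2.4.6 and matplotlib 3.10.9 under Python 3.11.15.

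Members and gene lists were chosen with earlier results of these data known. Named are the 10 members, other desmosome genes (with levels where over 10 TPM in a set, and where called), extremes called in the junction lists, the 10 (AG) and 5 (GHA501A) genes most correlated with the members, and cell type markers. The Dsg1 and Dsc1 levels, Cdsn and the junction genes listed near 0 were named after their values were seen. Alternatives covered pseudocount, filters, set summary, gates, conflicting cells, cells with few genes, the block and leaving out sets. Leaving out the highest cell, for differences and family shares, was added after seeing the data. Some genes that the naming rule would include are not reported here.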

Additional observations from a re-analysis of the deposited data

Results flagged for a closer look

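In the Krt14-high cells of GHA501A, each member was checked for a single cell far from the others, by the gap to the nearest cell divided by the whole range, in 20 groups of cells (10 members, untreated and treated). The check picked out 8. Its rate of about 1 in 20 by chance holds only for normally distributed values in independent groups. TPM values of single cells are skewed and these groups share the same cells, so the 8 cannot be set against that rate. In the 8 untreated cells the ratio was 0.709 for Dsc2 (54.9 TPM in the highest cell, 16.01 in the next) and 0.672 for Perp (2377 and 866 TPM). In the 10 treated cells it was 0.992 for Pkp2 (239 and 1.79 TPM), 0.922 for Dsc2 (344 and 26.9 TPM), 0.770 for Dsc3 (1274 and 293 TPM), 0.654 for Dsg3 (1395 and 482 TPM), 0.602 for Perp (4175 and 1701 TPM) and 0.555 for Pkp3 (73.1 and 32.5 TPM). The highest treated values of Dsg3, Dsc2 and Perp were in the same cell, which had 10582 TPM of Krt14 and 5180 genes detected. The highest Pkp2 value was in another cell, with 657 TPM of Krt14.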

How the results depend on the processing

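Depth is unknown, and 4 library sets limit every test here. Treated minus untreated, all settings, with or without the replicate block, called no member and no gene, over all cells and in Krt14-high cells. Leaving out sets in turn requires fits without the block, which then carry the difference between the series, and leaves a lone sample assumed to vary like the rest. Over all cells the median difference of the members then ran from -1.32 to 2.40, Dsp from -2.01 to 2.73, Dsg2 from -1.91 to 1.93, Dsg3 from -1.55 to 4.08, Dsc2 from 0.54 to 3.57, Dsc3 from -0.48 to 2.40, Pkp1 from -2.27 to 2.56, Pkp2 from -0.23 to 0.99, Pkp3 from -0.64 to 1.43, Jup from -1.09 to 2.41 and Perp from -1.75 to 2.14. In Krt14-high cells the median ran from -0.12 to 0.99, Dsp from -0.73 to 1.08, Dsg2 from -0.76 to 0.29, Dsg3 from -0.28 to 2.52, Pkp1 from -1.23 to 1.67, Pkp2 from -0.045 to 0.64, Pkp3 from -1.56 to 2.28 and Perp from -0.55 to 0.34. There Pkp2 was -0.57 with means of log2 values and -1.62 without the highest cells, and Perp 0.014 without cells of few genes.

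Between the series over all cells, means of log2 values gave a median of 4.60 and 5539 called genes against 3580, and leaving out sets gave 1023 to 2229 genes and 0 to 7 members. Without the replicate block 8 members were called. In Krt14-high cells the members called were 0 without a gene filter, with a filter at 10% of cells (Pkp3 is then not tested) and with the gate at 30 TPM, 2 without the replicate block and 0 to 3 when sets were left out. With means of log2 values the 1 member called was Pkp1 (adjusted p = 0.0476), not Pkp3. All genes called were 1265, but 0 without the filter, 0 with the gate at 30 TPM, 680 with means of log2 values, 1941 without the replicate block and 0 to 2698 when sets were left out. Dsc2 turned to 0.049 with the gate at 30 TPM, 0.94 without the highest cells, and ran from -1.23 to 0.57 when sets were left out. Dsc3 turned to 0.31 with means of log2 values, 0.21 with that gate and 0.40 without the highest cells, and ran from -1.29 to 0.56. Pkp2 turned to 0.15 and 1.56 with means of log2 values and without the highest cells.

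For Krt14-high against Col1a1-high cells, no setting called a gene. The median of 4.67 became 5.94 with a pseudocount of 0.1, 4.85 with the 10% filter, 3.93 with means of log2 values, 4.78 and 4.51 with gates at 30 and 300 TPM, 4.395 without the highest cells, and 4.57 to 4.67 when a set was left out. The cause of these changes was not tested.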

Other observations

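The mixed cells of GHA501A, over 100 TPM in both Krt14 and Col1a1, belong to neither of the classes compared above. With the cut at 100 TPM they enter only the comparisons over all cells. In the 10 treated mixed cells Perp averaged 168.7 TPM (median 15.6, highest 812), Jup 31.5 TPM (median 9.65, highest 160.9), Dsg3 31.2 TPM (median 7.09, highest 178), Dsc3 30.03 TPM (median 0.630, highest 282) and Dsp 16.01 TPM (median 2.30, highest 81.99). Of the Dsc3 sum, 93.8% lay in 1 cell. Of the 12 mixed cells, 3 had 8 or more of the 10 desmosome genes over 1 TPM. Col1a1-high cells had at most 6.

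In the AG series, 18 cells had fewer than 5000 genes over 1 TPM, and these had a median of 7 of the 10 desmosome genes (range 3 to 9), against 8 (range 3 to 10) in the other AG cells. At least 8 members were detected in 37 of 66 untreated and 51 of 64 treated AG cells, which is 56.1% and 79.7%, at medians of 6191 and 6381 genes per cell. In Krt14-high cells of GHA501A the counts were 5 of 8 untreated and 6 of 10 treated cells, which is 62.5% and 60%. This count was noticed after the values were seen and was not tested over library sets.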
